A study of Mus musculus with 15 samples.

Results

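The 43 genes described here encode proteins that copy DNA in S phase or regulate that copying. They were chosen by name and role, from E2F activators to chromatin assembly, and matched to the count table through their Ensembl identifiers. All 43 were found among the 52636 identifiers of the table, and all 43 were among the 13451 genes with enough counts to be tested. RNA was sequenced from 15 samples of the mouse CRAFR26 line, grown as epiblast-like cells (EpiLCs), which carries a cRAF kinase that tamoxifen switches on and so drives the MEK and ERK kinases. For every sample the labels give 2 passages as RSC and 48 h of EpiLC culture. Embryonic stem cells became EpiLCs in N2B27 medium with bFGF (12 ng/ml), Activin A (20 ng/ml) and XAV939 (1 µM). Every group was then held in PD17, an FGF receptor inhibitor (250 nM), for 2 h. The 0h group (3 samples) was taken at that point. The 2h and 4h groups (4 samples each) had 250 nM of 4-hydroxytamoxifen (4OHT) for those times, and the rev group (4 samples) had it for 4 h followed by a MEK inhibitor for 2 h. The samples came from clone 4 and clone 8, with 1 and 2 samples at 0h and 2 of each elsewhere, so each result covers 2 clones of 1 line. Another 0h sample failed the authors' quality control and was not analysed here. A group with 4OHT and an inactive kinase, and a group with 4OHT for as long as rev but without the MEK inhibitor, were not analysed here, so kinase and drug, and inhibitor and time, cannot be told apart.

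Replication starts at origins that are licensed before S phase. The origin recognition complex, Cdc6 and Cdt1 load the ring of Mcm proteins onto DNA, and geminin (Gmnn) blocks Cdt1 once S phase has begun. Cdc45 and the GINS complex turn the ring into an active helicase, polymerase alpha and primase lay down primers, the clamp loader Rfc places the Pcna clamp, and the polymerases delta and epsilon extend the strands. Many of these genes are textbook targets of E2F factors, and their RNA is known to rise towards S phase in somatic cells. Mouse pluripotent cells divide fast and spend much of their cycle in S phase.

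Promoter sequence is shown here because E2F sites are the regulatory feature that this family is known to share. RefSeq promoter windows of GRCm38.p6 (mm10), from 250 bases before to 50 after a start, were found for 35 of the 43 genes. An E2F word (TTTCCCGC, TTTCGCGC, TTTGCCGC or TTTGGCGC, on either strand, overlaps allowed) lay in 14 of these 35 genes (40%). It lay in 704 of all 27025 genes with such a window (2.6%), which were not limited to the genes counted or tested here. It lay in 5 of the 17 genes with a window that were lower at 4h than at 0h (29.4%) and in 9 of the 18 others (50%). The word CCAAT, which the factor NF-Y binds, was in 24 of 35 (68.6%), against 41.1% of all genes with a window. The short word TTTGAA was in 6 of 35 (17.1%), against 20.2%. A match is a description of letters, not a bound site. Stretches of 60 bases are printed for the members with a word in the bases before the RefSeq start, where the whole stretch also lay outside the gene as annotated, with the E2F words in capitals and read along the gene's strand. They are Mcm5 (chr8:75109332-75109391, plus strand), Mcm6 (chr1:128359780-128359839, minus strand), Pola1 (chrX:93632260-93632319, minus strand) and E2f3 (chr13:29986064-29986123, minus strand).
Mcm5: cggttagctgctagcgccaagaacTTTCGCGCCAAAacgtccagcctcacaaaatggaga
Mcm6: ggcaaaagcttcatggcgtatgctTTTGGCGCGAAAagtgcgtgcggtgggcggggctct
Pola1: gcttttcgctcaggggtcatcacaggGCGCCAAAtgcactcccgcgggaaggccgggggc
E2f3: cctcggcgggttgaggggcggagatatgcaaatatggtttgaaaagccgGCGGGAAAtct
In Mcm5 and Mcm6 the capitals hold 2 overlapping words on opposite strands, and in Pola1 and E2f3 they hold 1.

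The 4h libraries stood apart in depth. Their total counts lay between 1552022 and 6658950, against 8667880 to 13004556 in the other groups, and the 43 genes together had 3803 to 11763 counts at 4h and 19863 to 57045 elsewhere. Mitochondrial genes took 7.21% to 12.4% of the counts at 4h and 2.67% to 6.98% elsewhere. The 8 listed genes of ERK output checked the induction. Their summed level was 116 to 153 CPM in the 0h libraries, 718 to 1397 in 2h, 324 to 717 in 4h and 210 to 277 in rev. Of this sum Egr1 had means of 1.97 CPM at 0h and 599 at 2h. In 2h against 0h 5 of the 8 were higher and 1 was lower (Etv4), and in 4h against 0h 7 were higher and none lower. Levels are CPM, read counts scaled to a common library size after TMM (trimmed mean) scaling. All 10 listed EpiLC and pluripotency markers were tested, and in 4h against 0h 6 were lower and 3 higher (Sox2, Otx2 and Tdgf1). Their sum was 1827 to 2119 CPM at 0h and 1258 to 1361 at 4h, of which Dnmt3b had means of 935 and 416 CPM. The 6 neural markers summed to 24.2 to 33.0 CPM at 0h and 53.8 to 75.4 at 4h, with 3 higher and 1 lower. Lists of other cell types had sums of at most 17.4 CPM, and some of them moved with the groups. The 7 fibroblast markers (Postn without a count) summed to 4.28 to 10.7 CPM at 0h, 0.377 to 6.11 at 4h and 7.99 to 17.4 in rev. Of the 3 that were tested, Thy1 and Dcn were lower in 4h against 0h (-1.77 and -2.50 on the log2 scale), and all 3 were higher in rev against 4h. The 7 mesoderm markers summed to 3.03 to 4.86 CPM at 0h and to 6.15 to 13.3 at 4h, with no overlap, and 1 of 4 tested was higher (Eomes). In rev, where they summed to 7.37 to 12.5 CPM, Eomes (1.47) and Gsc (3.54) were higher than at 0h. Gsc was also higher in 2h against 0h (2.89). The 8 primitive endoderm markers summed to 5.48 to 7.61 CPM at 0h, 3.39 to 7.90 at 4h and 7.37 to 10.3 in rev. In 4h against 0h 1 of 4 tested was lower (Amn). Foxa2 was higher in rev against 4h (3.22) and in rev against 0h (2.37). At 4h Dcn, Amn and Foxa2 had at most 0.455, 0.377 and 0.494 CPM. These levels were below 3 counts, which was 0.683 to 1.83 CPM in the 4h libraries, so the sizes of their changes from or to 4h are uncertain. The part of depth, mitochondrial share and these markers in the results that follow was not tested. In bulk RNA, fewer cells in S phase and less RNA per cell cannot be told apart.

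At 4h, 20 of the 43 genes were lower than at 0h and none was higher. The falls were in 5 of 6 licensing genes (geminin by 1.19 on the log2 scale), in 5 of 6 genes of the clamp and its loader, in Mcm7, Gins2, Gins4, Pola2, Rpa2, Fen1 and Rrm2 and in all 3 genes of histone supply and chromatin assembly. Of all 13451 tested genes 18.9% were called lower and 20.5% higher, while 46.5% of the replication genes were called lower. A gene was called when the adjusted p of edgeR's quasi-likelihood test, two-sided and adjusted over all tested genes (Benjamini-Hochberg), was under 0.05. The median log2 change of the 43 was -0.25, against 0.026 for all tested genes, and 34 of the 43 changes were negative. In 19 of them every 4h library was below every 0h library, as in 18.1% of all genes. Their summed level, which was not tested, was 2876 ± 177 CPM (SD, n = 3) before induction and 2489 ± 207 CPM (SD, n = 4). Leaving out the only clone 4 library of 0h left 12 calls, and leaving out both 4h libraries of clone 4 left 10 lower and 1 higher. Scaling by total count instead of TMM moved the median of all genes to -0.73 and that of the 43 to -0.97. Under it 39 of the 43 were called lower, and the share of all genes called lower is not given here.

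The comparison of 4h with 2h, which uses the same 4h libraries, gave 22 genes lower and none higher, where 19.2% of all genes were lower and 19.7% higher. The median was -0.26, against -0.007 for all tested genes, with 39 negative changes, and 19 genes had every 4h library below every 2h library (13.3% of all genes). The largest falls in this comparison were in Gmnn (-1.29), Slbp (-1.25), Fen1 (-1.20), Rpa2 (-0.82), Rfc4 (-0.73) and Rrm2 (-0.73). Early in the induction few genes were called. At 2h, 1 of 43 genes was higher than at 0h (Slbp) and none was lower, against 3.98% of all genes higher and 2.46% lower. An unadjusted p under 0.05 was found for 6 of the 43, and the share of all genes at that threshold is not given here. The summed level at 2h was 3020 ± 210 CPM (SD, n = 4).

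After the MEK inhibitor, 15 genes were higher than at 4h and 1, E2f2, was lower. The same 4h libraries were used for the falls above, so the rise is not independent of them. Of all tested genes 15.1% were called higher and 15.6% lower. The median log2 change was 0.20, against 0.016 for all tested genes, and in 15 genes every rev library was above every 4h library (11.9% of all genes). Largest were Gmnn (1.01), Slbp (0.96), Fen1 (0.87), Gins2 (0.59), Rpa2 (0.56) and Orc6 (0.56). Leaving out the rev library clone8_1 left 9 calls. Against 0h, which shares the rev libraries with this comparison, 1 of the 43 was called (E2f1, lower). Of all genes 4.66% were called lower, 6.49% higher and 11.2% in all. The median was -0.065, against 0.019 for all tested genes, with 30 of the 43 changes negative. An unadjusted p under 0.05 was found for 11 of the 43, and the share of all genes at that threshold is not given here. The count of 1 moved with the settings: it was 0 to 3 on leaving out 1 library, with 3 without 4h clone4_2 or 4h clone8_1, and 0 to 8 under the other alternatives, with 8 when only the libraries of both groups were fitted. The rev libraries summed to 2790 ± 73.5 CPM (SD, n = 4).

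**Figure D1:**
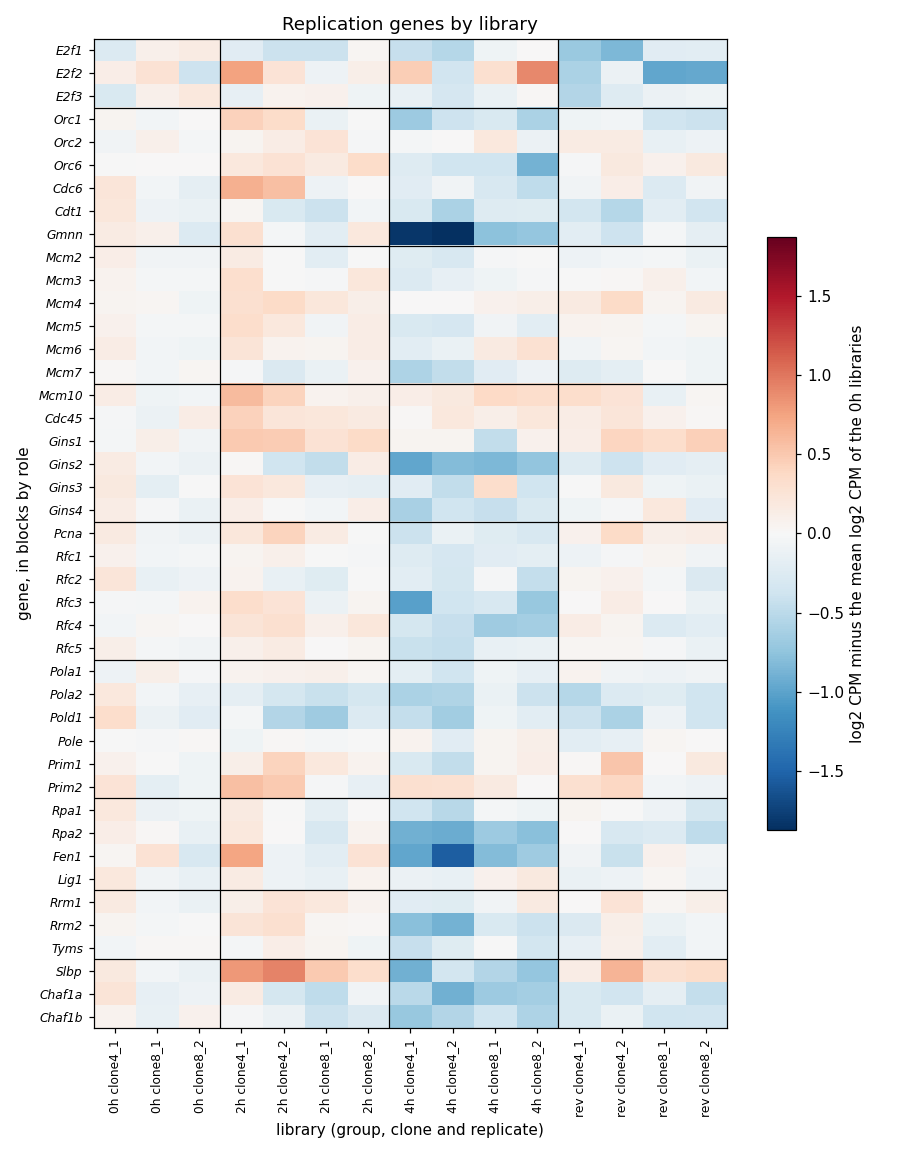
Log2 CPM of each of the 43 genes (rows, in blocks by role) in each of the 15 libraries (columns, by group, clone and replicate), minus the gene's mean over the 0h libraries. Blue cells gather in the 4h columns, in rows such as Gmnn, Gins2, Rpa2, Fen1 and Slbp, while Mcm4 and Pole stay near the 0h level there.

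Library values are given in the order clone 4 then clone 8: at 0h the first value is clone 4 and the other two are clone 8, and elsewhere the first pair is clone 4 and the second pair clone 8. Coordinates are those of mm10.

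Licensing genes were lower at 4h in 5 of 6 cases against 0h (Orc1, Orc6, Cdc6, Cdt1 and Gmnn), where 18.9% of all genes were. Against 2h 4 of 6 were lower (Orc1, Orc6, Cdc6 and Gmnn), where 19.2% of all genes were. Geminin (Gmnn, ENSMUSG00000006715, chromosome 13, 24751845 to 24761923, minus strand) had 24.1, 23.3 and 18.3 CPM before induction and 26.9, 21.2, 18.9 and 25.0 after 2 h of it. Its 4h libraries had 6.11, 5.92, 12.8 and 13.2 CPM, and in rev 19.1, 16.6, 21.2 and 19.4. All 4h libraries lay below all others, those of clone 4 the lowest, and the rev values overlapped the 0h values. The log2 change was -1.19 in 4h against 0h (SE 0.21, adjusted p = 2e-04), -1.29 in 4h against 2h (SE 0.20, adjusted p = 5.58e-05) and 1.01 in rev against 4h (SE 0.20, adjusted p = 0.000829). The shallowest 4h library held 10 counts of it.

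Orc6 (ENSMUSG00000031697, chromosome 8, 85299632 to 85308278, plus strand) encodes the smallest subunit of the origin recognition complex. Its level was 41.8, 42.0 and 42.0 CPM in the 0h libraries, 48.1, 50.5, 47.4 and 53.2 in 2h, 35.4, 32.3, 32.6 and 22.6 in 4h and 41.3, 47.7, 44.6 and 47.6 in rev. Every 4h library was below all others, with clone8_2 the lowest, and every 2h library was above 0h, although that rise did not pass the test (0.24, adjusted p = 0.248). The change was -0.46 in 4h against 0h (SE 0.12, adjusted p = 0.00436), -0.70 in 4h against 2h (SE 0.11, adjusted p = 4.43e-05) and 0.56 in rev against 4h (SE 0.11, adjusted p = 0.000607). Orc1, the largest subunit, fell by 0.50 in 4h against 0h (adjusted p = 0.00571) and by 0.63 in 4h against 2h (adjusted p = 0.000476), and its 0.23 in rev against 4h did not pass (adjusted p = 0.171). Orc2, another subunit, was at 0.019 in 4h against 0h (SE 0.11). Of the loaders, Cdc6 changed by -0.32 in 4h against 0h (adjusted p = 0.0356) and Cdt1 by -0.34 (adjusted p = 0.0318). Both calls were lost without 0h clone4_1 (adjusted p = 0.0818 for Cdc6 and 0.313 for Cdt1). That of Cdc6 was also lost without 0h clone8_1 (0.108), 4h clone4_1 (0.0785) or 4h clone8_2 (0.0601), and that of Cdt1 without 4h clone4_2 (0.0986). Cdt1 was at -0.36 in rev against 0h with every rev library below 0h (adjusted p = 0.0567).

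The core helicase genes called at 4h were Mcm3, Mcm5 and Mcm7. Per kilobase of exon, Mcm5 had the highest level of the 43 genes at 0h (59.5 CPM per kb), followed by Rrm2 (47.0), Mcm3 (45.8) and Mcm4 (41.4), and E2f2 had the lowest (0.464). In 4h against 0h 1 of 6 genes was lower (Mcm7), or 16.7% where 18.9% of all genes were, and in 4h against 2h 3 of 6 were (Mcm3, Mcm5 and Mcm7), or 50% where 19.2% were. Mcm5 (ENSMUSG00000005410, chromosome 8, 75109569 to 75128439, plus strand), whose upstream stretch is printed above, had 251, 230.3 and 231 CPM in the 0h libraries, 297, 273, 227 and 262 in 2h, 196, 190.3, 227 and 208 in 4h and 249, 247, 232 and 245 in rev. The 4h libraries were below those of the other groups, the highest of them only just. Its change was -0.36 in 4h against 2h (SE 0.082, adjusted p = 0.00138), -0.22 in 4h against 0h (SE 0.089, adjusted p = 0.0564) and 0.24 in rev against 4h (SE 0.082, adjusted p = 0.0283). The last call was lost without 4h clone4_1 (adjusted p = 0.08), 4h clone4_2 (0.118), rev clone4_1 (0.0571), rev clone8_1 (0.0602) or rev clone8_2 (0.075).

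Mcm7 (ENSMUSG00000029730, chromosome 5, 138164583 to 138172422, minus strand) had 172, 163.5 and 174 CPM in the 0h libraries, 168, 141, 156 and 179 in 2h, 114, 123, 146 and 158 in 4h and 143, 149, 169.6 and 161 in rev. All 4h values lay below 0h, and the 4h and 2h ranges overlapped. It changed by -0.31 in 4h against 0h (SE 0.094, adjusted p = 0.0119), lost without 0h clone4_1 (adjusted p = 0.127), and by -0.26 in 4h against 2h (SE 0.087, adjusted p = 0.0234). The latter was lost without 2h clone4_1 (0.0695), 2h clone8_2 (0.0659), 4h clone4_1 (0.084) or 4h clone4_2 (0.0613). Mcm3 was at -0.26 in 4h against 2h (adjusted p = 0.023), a call lost without the same libraries (0.0855, 0.0671, 0.077 and 0.0551 in that order). Mcm2, Mcm4 and Mcm6, the other ring subunits, were called in none of the group comparisons, with -0.14, 0.040 and 0.048 in 4h against 0h and standard errors of 0.094, 0.085 and 0.10.

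Among the activators of the helicase, the calls between groups were in GINS subunits. Gins2 and Gins4 were lower at 4h in both comparisons, Gins1 was lower in 4h against 2h, and Gins3 in neither. Gins2 (ENSMUSG00000031821, chromosome 8, 120578633 to 120589304, minus strand) had 28.0, 24.4 and 23.5 CPM in the 0h libraries, 25.7, 19.5, 18.3 and 27.9 in 2h, 12.8, 14.3, 14.1 and 15.1 in 4h and 21.4, 19.2, 21.9 and 22.4 in rev. The 4h libraries formed a narrow range below all others. The change was -0.84 in 4h against 0h (SE 0.14, adjusted p = 0.000102), -0.69 in 4h against 2h (SE 0.14, adjusted p = 0.000364) and 0.59 in rev against 4h (SE 0.14, adjusted p = 0.00226). This value is uncertain, because 67.3% of the exon bases of Gins2 are shared with Gse1 on the opposite strand and the handling of strand in the counting is not given in the sources used here.

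Gins4 (ENSMUSG00000031546, chromosome 8, 23226616 to 23237659, minus strand) had 36.0, 32.2 and 29.9 CPM in the 0h libraries, 35.5, 32.5, 31.5 and 35.5 in 2h, 21.4, 25.2, 24.1 and 26.8 in 4h and 30.8, 32.1, 37.4 and 28.0 in rev. Again every 4h library was the lowest, and the other groups overlapped. It changed by -0.42 in 4h against 0h (SE 0.12, adjusted p = 0.00767), by -0.47 in 4h against 2h (SE 0.11, adjusted p = 0.00211) and by 0.39 in rev against 4h (SE 0.11, adjusted p = 0.0102). The call in 4h against 0h was lost without 0h clone4_1 (adjusted p = 0.0809) and that in rev against 4h without rev clone8_1 (0.079). Gins1 was at -0.47 in 4h against 2h (adjusted p = 0.0137), lost without 4h clone8_1 (0.0706). In rev against 4h Gins1 was at 0.39 (adjusted p = 0.043), and leaving out any of 6 libraries ended that call, with the largest adjusted p (0.203) without 4h clone8_1. Gins3, at -0.14 in 4h against 0h (SE 0.19), Cdc45, the helicase partner of GINS, at 0.13 (SE 0.12), and Mcm10, an initiation factor, at 0.23 (SE 0.12) were not called between groups.

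The clamp and its loader gave 5 lower of 6 in 4h against 0h and in 4h against 2h, where 18.9% and 19.2% of all genes were lower. In rev against 4h they gave 4 higher of 6, where 15.1% of all genes were higher. Pcna (ENSMUSG00000027342, chromosome 2, 132249162 to 132253314, minus strand), the sliding clamp, had 102, 86.4 and 84.3 CPM in the 0h libraries, 105, 121, 101 and 89.8 in 2h, 68.4, 83.4, 77.2 and 73.9 in 4h and 96.0, 116, 98.3 and 100.2 in rev. The highest 4h value was just below the lowest 0h value, while the gap to 2h and rev was wider. Its change was -0.28 in 4h against 0h (SE 0.10, adjusted p = 0.0295), -0.45 in 4h against 2h (SE 0.093, adjusted p = 0.000601) and 0.43 in rev against 4h (SE 0.093, adjusted p = 0.00119). The call in 4h against 0h was lost without 0h clone4_1 (adjusted p = 0.147), 0h clone8_1 (0.0554) or 4h clone4_1 (0.0863).

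Rfc3 (ENSMUSG00000033970, chromosome 5, 151642756 to 151651242, minus strand), a small loader subunit, had 19.5, 19.3 and 20.7 CPM in the 0h libraries, 24.9, 23.8, 18.3 and 20.5 in 2h, 9.77, 15.3, 16.2 and 12.1 in 4h and 19.9, 21.8, 20.0 and 18.3 in rev. Rfc4 (ENSMUSG00000022881, chromosome 16, 23113943 to 23127737, minus strand), another small subunit, had 11.9, 12.6 and 12.4 CPM in the 0h libraries, 14.5, 15.1, 13.1 and 14.3 in 2h, 9.77, 9.13, 7.74 and 7.92 in 4h and 13.6, 12.8, 10.3 and 10.7 in rev. For both the 4h libraries lay below all others, and the 0h and rev values lay close together. Rfc3 changed by -0.56 in 4h against 0h (SE 0.15, adjusted p = 0.00503), -0.68 in 4h against 2h (adjusted p = 0.000579) and 0.56 in rev against 4h (adjusted p = 0.0044), and was at -0.0052 in rev against 0h (SE 0.14). Rfc4 changed by -0.55 in 4h against 0h (SE 0.14, adjusted p = 0.00324), -0.73 in 4h against 2h (adjusted p = 0.000132) and 0.46 in rev against 4h (adjusted p = 0.00978).

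Of the remaining loader subunits, the large subunit Rfc1 was at -0.24 in 4h against 0h (adjusted p = 0.0285), a call lost without 0h clone4_1 (0.16) or 4h clone4_2 (0.0501), and fell by 0.27 in 4h against 2h (adjusted p = 0.0106). Rfc5 was at -0.28 in 4h against 0h (adjusted p = 0.0347), which 4 libraries each ended when left out: 0h clone4_1 (0.192), 0h clone8_1 (0.0553), 4h clone4_1 (0.0875) and 4h clone4_2 (0.0821). Its -0.35 in 4h against 2h (adjusted p = 0.00584) kept its call in those fits, and its 0.25 in rev against 4h (adjusted p = 0.0468) was lost in 7 of 15, most without 4h clone4_2 (0.179). Rfc2 was at -0.26 in 4h against 0h (SE 0.12, adjusted p = 0.0969) and was not called.

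**Figure D2:**
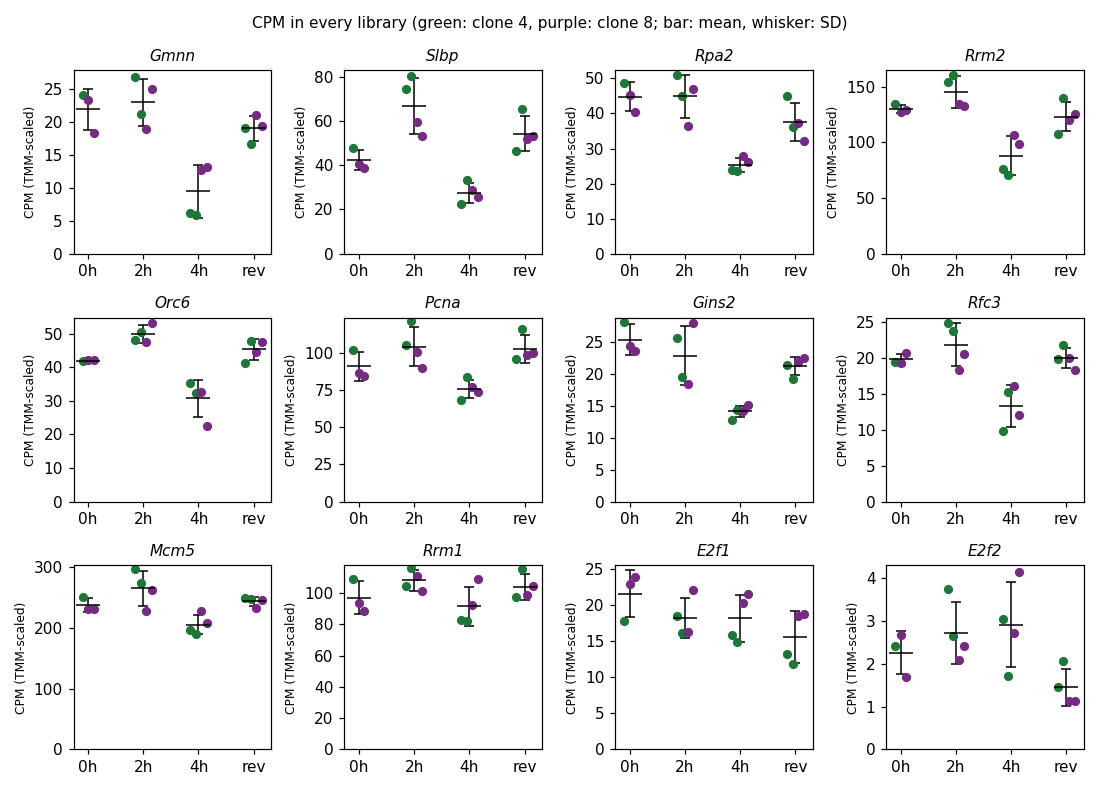
CPM of 12 genes in every library (points; green clone 4, purple clone 8) by group, with the group mean (bar) and SD (whisker); each vertical axis starts at 0. In the first 8 panels the 4h points lie below those of every other group, whereas Rrm1, E2f1 and E2f2 overlap between groups.

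Of the 6 polymerase and primase genes, 1 was lower in 4h against 0h (Pola2), 1 in 4h against 2h (Pola1) and none was called in rev against 4h. The share in each of the first 2 comparisons, 16.7%, is near that of all genes (18.9% and 19.2%). Pola2 (ENSMUSG00000024833, chromosome 19, 5940542 to 5964202, minus strand), the regulatory subunit of polymerase alpha, had 46.2, 39.2 and 36.5 CPM in the 0h libraries, 36.1, 32.2, 30.3 and 32.0 in 2h, 26.9, 27.4, 37.1 and 30.5 in 4h and 27.9, 33.8, 34.5 and 31.2 in rev. The 0h libraries were above all of 2h and rev, while the 4h range reached into that of 0h. The change was -0.41 in 4h against 0h (SE 0.13, adjusted p = 0.0135), lost without 0h clone4_1 (adjusted p = 0.16), and it was -0.31 in 2h against 0h (adjusted p = 0.141) and -0.35 in rev against 0h (adjusted p = 0.071).

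Pola1 (ENSMUSG00000006678, chromosome X, 93304767 to 93632155, minus strand), the catalytic subunit of the same polymerase and another gene with a printed upstream stretch, had 56.3, 65.0 and 59.5 CPM in the 0h libraries, 63.2, 63.3, 64.0 and 61.7 in 2h, 53.2, 46.7, 57.1 and 53.9 in 4h and 62.8, 57.2, 56.1 and 57.3 in rev. The 4h libraries were below the tight 2h range but overlapped 0h. It changed by -0.26 in 4h against 2h (SE 0.087, adjusted p = 0.0222), lost without 4h clone4_2 (adjusted p = 0.0756), and was at -0.19 in 4h against 0h (adjusted p = 0.122). Pole, the catalytic subunit of the leading-strand polymerase, was at 0.023 in 4h against 0h (SE 0.089). Pold1, that of the lagging strand, was at -0.35 (SE 0.17), and the primase genes Prim1 and Prim2 at -0.12 (SE 0.15) and 0.13 (SE 0.13).

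Rpa2 and Fen1 fell, while Rpa1 and Lig1 were not called. Rpa2 (ENSMUSG00000028884, chromosome 4, 132768332 to 132778752, plus strand), a subunit of the protein that coats single-stranded DNA, had 48.7, 45.3 and 40.5 CPM in the 0h libraries, 51.1, 45.1, 36.3 and 47.0 in 2h, 23.8, 23.5, 27.8 and 26.0 in 4h and 44.9, 36.1, 37.4 and 32.1 in rev. The 4h libraries were close to each other and below all others. The change was -0.84 in 4h against 0h (SE 0.13, adjusted p = 2.24e-05), -0.82 in 4h against 2h (SE 0.12, adjusted p = 1.26e-05) and 0.56 in rev against 4h (SE 0.12, adjusted p = 0.000928). Rpa1, the large subunit of the same protein, was at -0.25 in 4h against 0h (SE 0.12, adjusted p = 0.114). Lig1, the ligase that seals Okazaki fragments, was at 0.0048 (SE 0.11).

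Fen1 (ENSMUSG00000024742, chromosome 19, 10199132 to 10204169, minus strand), the nuclease that removes flaps from Okazaki fragments, had 3.67, 4.35 and 2.91 CPM in the 0h libraries, 6.02, 3.36, 3.14 and 4.34 in 2h, 1.83, 1.23, 2.05 and 2.26 in 4h and 3.43, 2.68, 3.81 and 3.42 in rev. All 4h values were below the rest, but they came from 3, 5, 9 and 6 counts. It changed by -1.01 in 4h against 0h (SE 0.30, adjusted p = 0.0105), -1.20 in 4h against 2h (SE 0.28, adjusted p = 0.002) and 0.87 in rev against 4h (SE 0.29, adjusted p = 0.0263). The last call was lost without 4h clone4_2 (adjusted p = 0.123), rev clone4_1 (0.0532) or rev clone8_1 (0.0712). These values are uncertain for a further reason: 84.2% of the exon bases are shared with Gm10143 and Tmem258 on the opposite strand.

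Ribonucleotide reductase, which makes deoxynucleotides, pairs a large subunit, Rrm1, with a small one, Rrm2 or its alternative Rrm2b. Of the pair among the 43 genes, Rrm2 was called and Rrm1 was not. Rrm2 (ENSMUSG00000020649, chromosome 12, 24708241 to 24714146, plus strand), the small subunit, had 134, 128 and 129 CPM in the 0h libraries, 155, 161, 134 and 133 in 2h, 75.8, 70.6, 107 and 98.8 in 4h and 108, 140, 120 and 125 in rev. Every 4h library was below every other library, clone 4 the lowest. It fell by 0.56 in 4h against 0h (SE 0.12, adjusted p = 0.0011) and by 0.73 in 4h against 2h (SE 0.12, adjusted p = 4.24e-05), and rose by 0.49 in rev against 4h (SE 0.12, adjusted p = 0.00273). Rrm1 (ENSMUSG00000030978, chromosome 7, 102441695 to 102469771, plus strand), the large subunit, had 109, 93.4 and 88.8 CPM in the 0h libraries, 104, 116, 111 and 101 in 2h, 83.1, 82.2, 92.2 and 109 in 4h and 97.3, 116, 98.8 and 105 in rev. Its ranges overlapped in all groups, with -0.083 in 4h against 0h (SE 0.11, adjusted p = 0.568) and -0.24 in 4h against 2h (SE 0.10, adjusted p = 0.0617). Tyms, thymidylate synthase, was at -0.23 in 4h against 0h (SE 0.12, adjusted p = 0.118). The difference between Rrm2 and Rrm1 was not tested. Rrm2b, which is not one of the 43, had 2.11, 2.34 and 2.06 CPM at 0h and 4.89, 4.20, 3.19 and 3.39 at 4h, all above 0h, a rise of 0.81 (SE 0.27, adjusted p = 0.0211), and was named after its values were seen.

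Slbp, which binds the stem-loop of replication-dependent histone mRNAs, was the gene called at 2h. Slbp (ENSMUSG00000004642, chromosome 5, 33634952 to 33652574, minus strand) had 47.7, 40.6 and 38.8 CPM in the 0h libraries, 74.2, 80.3, 59.5 and 53.2 in 2h, 22.6, 33.1, 28.9 and 25.6 in 4h and 46.5, 65.5, 51.7 and 53.3 in rev. All 2h libraries lay above 0h, clone 4 the highest, all 4h libraries lay below every other group, and 3 of 4 rev libraries were above 0h. The mean was 42.4 ± 4.70 CPM (SD, n = 3) before induction, and 66.8 ± 12.6, 27.6 ± 4.49 and 54.3 ± 8.01 CPM in 2h, 4h and rev (SD, n = 4 each). Slbp rose by 0.61 in 2h against 0h (SE 0.13, adjusted p = 0.00667), fell by 1.25 in 4h against 2h (SE 0.13, adjusted p = 1.38e-07) and rose by 0.96 in rev against 4h (SE 0.13, adjusted p = 5.62e-06). Its change in 4h against 0h was -0.64 (adjusted p = 0.000715) and in rev against 0h 0.33 (adjusted p = 0.116). With total count scaling the 2h value was 0.40 (adjusted p = 0.694), with the median of all genes at -0.18.

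Chaf1a (ENSMUSG00000002835, chromosome 17, 56040439 to 56072289, plus strand), the large subunit of the chromatin assembly factor that follows the fork, had 70.6, 53.8 and 55.7 CPM in the 0h libraries, 66.2, 47.5, 42.7 and 56.7 in 2h, 42.2, 31.8, 37.3 and 38.5 in 4h and 49.1, 46.6, 53.2 and 43.6 in rev. The 4h libraries were below all others, the closest gap being to 2h, and the rev libraries were below those of 0h. It changed by -0.70 in 4h against 0h (SE 0.13, adjusted p = 0.000339), -0.51 in 4h against 2h (SE 0.13, adjusted p = 0.00296) and 0.36 in rev against 4h (SE 0.13, adjusted p = 0.0319). The last call was lost without 4h clone4_2 (adjusted p = 0.147), 4h clone8_1 (0.0601), rev clone4_1 (0.0547) or rev clone8_1 (0.157). Of its exon bases 52.5% are shared with Ubxn6 on the opposite strand, so the values are uncertain. Chaf1b, the partner subunit, fell by 0.56 in 4h against 0h (adjusted p = 0.000594). In 4h against 2h it was at -0.34 (adjusted p = 0.0161), lost without 4h clone4_1 (0.0572), and in rev against 4h at 0.25 (adjusted p = 0.0788).

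Of the 3 E2F activators none was called in 4h against 0h or 4h against 2h. E2f1 (ENSMUSG00000027490, chromosome 2, 154559407 to 154569892, minus strand) had 17.8, 22.9 and 23.9 CPM in the 0h libraries, 18.5, 16.1, 16.2 and 22.0 in 2h, 15.9, 14.8, 20.3 and 21.5 in 4h and 13.2, 11.9, 18.5 and 18.7 in rev. Within 0h, 4h and rev the clone 4 libraries were lower than those of clone 8, and all groups overlapped. The change was -0.19 in 4h against 0h (SE 0.14, adjusted p = 0.271) and -0.42 in rev against 0h (SE 0.13, adjusted p = 0.0419). Leaving out any of 6 of the 15 libraries ended the call in rev against 0h: 0h clone4_1 (adjusted p = 0.157), 0h clone8_1 (0.0898), 0h clone8_2 (0.0951), rev clone4_1 (0.0764), rev clone4_2 (0.125) and rev clone8_2 (0.0712).

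E2f2 (ENSMUSG00000018983, chromosome 4, 136172394 to 136196057, plus strand) had 2.43, 2.67 and 1.70 CPM in the 0h libraries, 3.75, 2.65, 2.09 and 2.41 in 2h, 3.05, 1.73, 2.73 and 4.15 in 4h and 1.47, 2.07, 1.13 and 1.14 in rev. The 4h values rest on 5, 7, 12 and 11 counts, and 3 of 4 rev libraries were below all the rest. Its change in rev against 4h was -0.98 (SE 0.32, adjusted p = 0.0231), a call lost without 4h clone8_2 (adjusted p = 0.106), rev clone4_1 (0.0507), rev clone8_1 (0.0551) or rev clone8_2 (0.0619). E2f3, which has a printed upstream stretch, was at -0.10 in 4h against 0h (SE 0.11) and -0.10 in rev against 4h (SE 0.11).

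**Figure D3:**
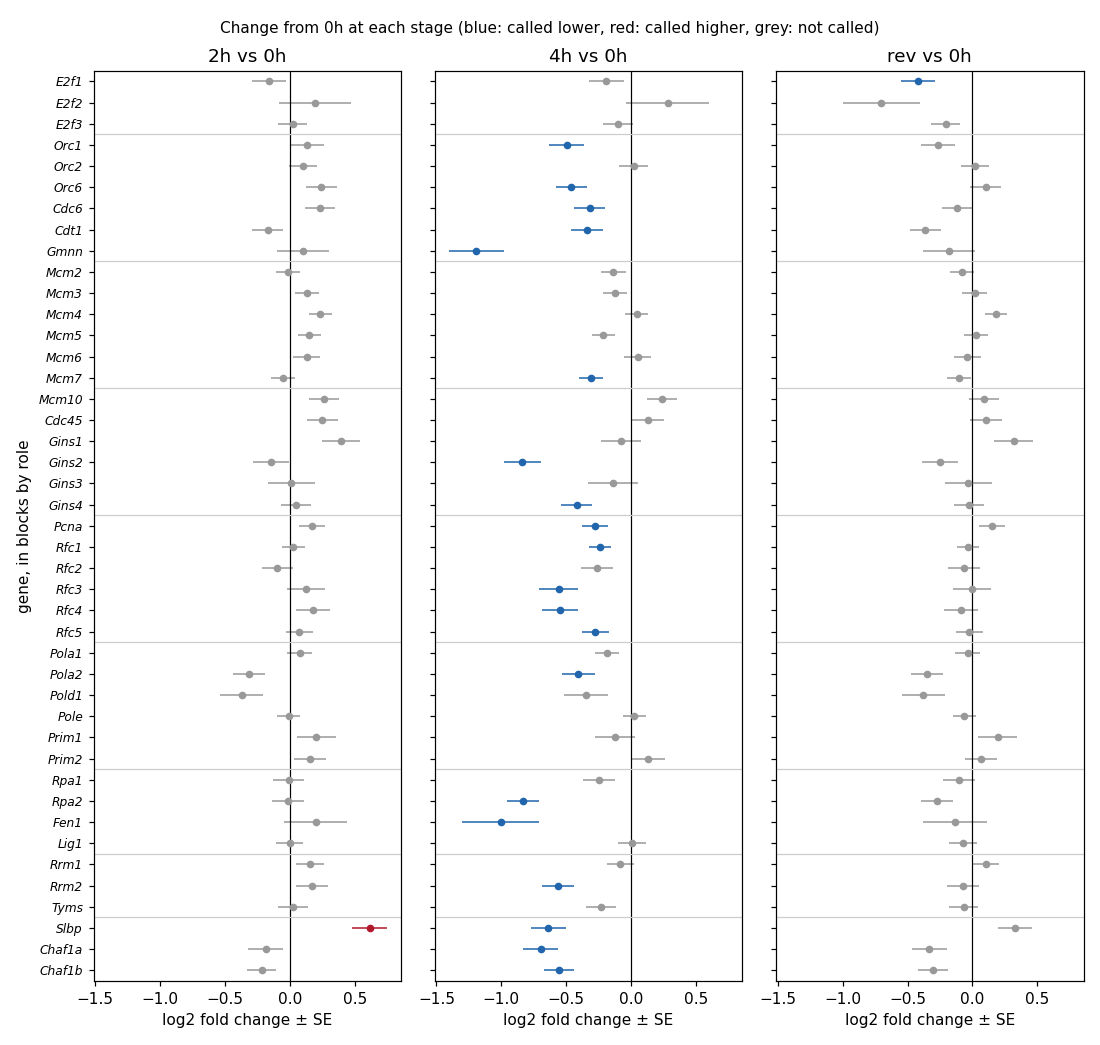
Log2 fold change from 0h at 2h, 4h and rev for each gene, with the model's standard error (bars); blue was called lower, red called higher and grey not called, and the 3 panels share the 0h libraries. At 2h only Slbp is coloured, at 4h the 20 blue points run from -1.19 (Gmnn) to -0.24 (Rfc1), and in rev only E2f1 is coloured.

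In most genes the fall was larger in clone 4. As ratios of mean CPM, all 43 genes were lower at 4h than at 2h in clone 4 (median log2 -0.42, 2 libraries against 2), and 31 of 43 were in clone 8 (median -0.14), where the medians of all tested genes were -0.018 and -0.015. The ratio was lower in clone 4 for 40 of the 43. The term for the clone difference, clone 8 minus clone 4, had a median of 0.34 over the genes against 0.026 for all tested genes, and under total count scaling these medians were -0.24 and -0.51. In rev against 4h the median log2 ratio was 0.31 in clone 4, with 38 of 43 positive, and 0.045 in clone 8, with 27 positive. The medians of all tested genes there were 0.021 and 0.017, so the value of clone 8 was close to that of all genes. Averaged over groups, 0h included, the 8 listed genes of ERK output did not all differ the same way between clones. Spry4, Egr1 and Phlda1 were lower in clone 8, Etv4 (0.51) and Etv5 (0.20) were higher, and 3 were not called. For the clone difference in 4h against 2h, 4 of the 8 were called, all negative (3.14% of all genes called in either direction). For that in rev against 4h, 4 were called, all positive (2.8% of all genes). The sum of the 8 genes, of which Egr1 made 730.1 and 910.1 CPM at 2h in clone 4, was higher in clone 4 after induction. It came to 1195 and 1397 CPM at 2h and 668 and 717 at 4h in clone 4. In clone 8 it came to 765 and 718 at 2h and 324 and 334 at 4h. The part of this difference in the replication genes was not tested.

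For 3 genes the clone difference in 4h against 2h was itself called, against 3.14% of all genes. They were Gmnn (1.24, adjusted p = 0.0132), Rrm2 (0.73, adjusted p = 0.0192) and Mcm10 (0.62, adjusted p = 0.0424). Gmnn had a log2 ratio of -2.00 in clone 4 and -0.76 in clone 8, Rrm2 -1.11 and -0.38, and Mcm10 -0.35 and 0.27. In 4h against 0h, where clone 4 has 1 library at 0h, 2 differences were called (3.87% of all genes), in Gmnn (1.32, adjusted p = 0.0116) and Mcm6 (0.61, adjusted p = 0.0404). In rev against 4h none was called, against 2.8% of all genes, with 0 calls by DESeq2 and limma-voom as well. By the edgeR test 7 had an unadjusted p under 0.05, and the share of all genes at that threshold is not given here. None of the 5 calls held for every library left out. That of Gmnn in 4h against 2h was lost without 2h clone4_1 (adjusted p = 0.0705), 2h clone8_1 (0.0534), 4h clone4_2 (0.0674) or 4h clone8_2 (0.0553), and in 4h against 0h without 0h clone8_2 (0.0851) or 4h clone4_2 (0.0521). That of Rrm2 was lost without 2h clone4_2 (0.055), 4h clone4_2 (0.0566) or 4h clone8_1 (0.0793). Those of Mcm10 and Mcm6 were each lost without any of 13 and 9 libraries, with the largest adjusted p of 0.181 without 2h clone4_1 and of 0.167 without 0h clone8_2. Averaged over groups, 4 genes differed between the clones, where 10.4% of all genes were higher in clone 8 and 8.11% lower: E2f1 (0.38, adjusted p = 0.00511) and E2f3 (0.23, adjusted p = 0.0456) were higher in clone 8, and Cdc6 (-0.37, adjusted p = 0.00261) and Prim2 (-0.42, adjusted p = 0.00155) were lower. The call of E2f3 was lost on leaving out any of 11 libraries, with the largest adjusted p (0.151) without 0h clone4_1.

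**Figure D4:**
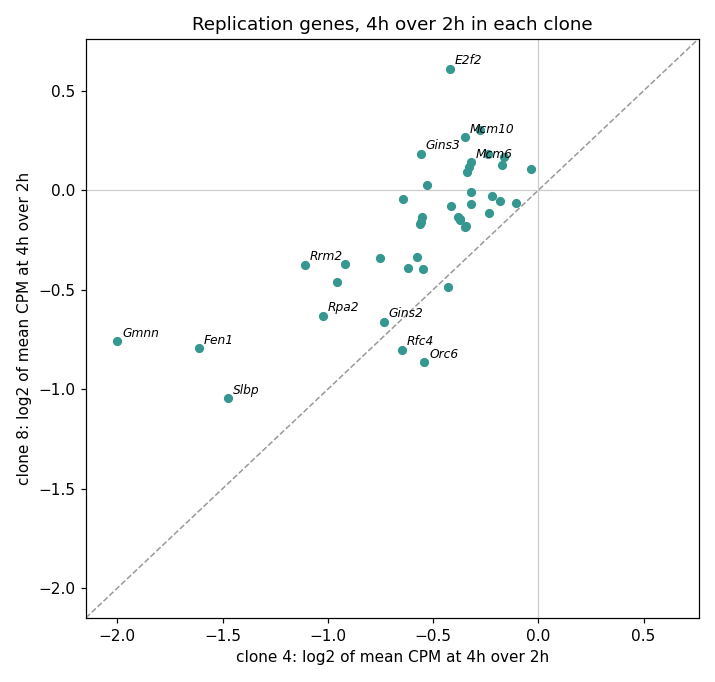
Log2 ratio of mean CPM at 4h over 2h in clone 4 (horizontal) and clone 8 (vertical) for each of the 43 genes, with the dashed line marking equal ratios. All points lie left of 0 and 40 lie above the dashed line, with Gmnn at -2.00 in clone 4 and -0.76 in clone 8.

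A further 61 replication genes, of which 60 were tested, were listed beside the 43. In 4h against 0h 18 of them were lower and 7 higher, in 4h against 2h 22 were lower and 6 higher, and in rev against 4h 16 were higher and 6 lower. Of these genes 30% were lower in 4h against 0h (18.9% of all genes), 36.7% were lower in 4h against 2h (19.2%) and 26.7% were higher in rev against 4h (15.1%). In the other direction the shares were 11.7%, 10% and 10%, where those of all genes were 20.5%, 19.7% and 15.6%. At 2h 1 was called (Pole4, higher), and in rev against 0h 2 were lower and 1 higher. The fork and polymerase subunits (21 tested) had 8 lower and 1 higher in 4h against 0h, nucleotide supply (7) 3 and 1, S-phase chromatin (9) 3 and 1, and the E2F and pocket protein network (10) 3 and 1. Origin licensing and firing (13) had 1 lower, Recql4, and 3 higher (7.69% and 23.1%, against 18.9% and 20.5% of all genes). These lists are short, and their shares were not compared by a test.

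Within each of these lists the gene with the smallest p is described. Dut, which clears dUTP, had 91.9, 68.0 and 66.5 CPM at 0h and 48.9, 26.4, 46.7 and 40.0 at 4h, all below 0h, and 72.5, 81.9, 72.2 and 60.6 in rev. Its change was -0.91 in 4h against 0h (adjusted p = 0.000743) and 0.82 in rev against 4h (adjusted p = 0.00154). Recql4, a helicase of replication initiation, had 21.4, 17.4 and 18.8 CPM at 0h and 9.77, 9.13, 13.9 and 10.2 at 4h, a change of -0.83 (adjusted p = 0.000211), and rose by 0.43 in rev against 4h (adjusted p = 0.0271). The others moved the opposite way at 4h. Asf1b, a histone chaperone, had 8.91, 8.96 and 7.51 CPM at 0h and 16.5, 13.1, 14.3 and 14.7 at 4h, a rise of 0.77 (adjusted p = 4e-04) followed by a fall of 0.67 in rev against 4h (adjusted p = 0.000875). Top1, a topoisomerase, had 116, 116 and 112 CPM at 0h and 221, 226, 156 and 177 at 4h, a rise of 0.72 (adjusted p = 1.43e-05), and stayed higher in rev against 0h (0.34, adjusted p = 0.033). E2f4, a repressive member of the E2F family, was at 0.14 in 4h against 0h (adjusted p = 0.264), rose by 0.28 in 4h against 2h (adjusted p = 0.0155) and fell by 0.38 in rev against 4h (adjusted p = 0.00244). A clone difference in 4h against 2h was called for Ticrr (1.18, adjusted p = 0.000233), a factor of origin firing, and Dna2 (0.92, adjusted p = 0.0251), a nuclease, both named after their values were seen.

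Gene length went along with the size of the change. In 4h against 0h the median log2 change of all tested genes was -0.11 in the shortest of 3 equal classes by exon length, 0.018 in the middle and 0.13 in the longest. The replication genes had medians of -0.44, -0.22 and -0.21 in the same classes, with 9 of 12, 7 of 19 and 4 of 12 called lower, where 22.9%, 18.8% and 15.1% of all genes were. Across the 43 genes, which share the same libraries, Spearman's rho between exon length and the change was 0.30 in 4h against 0h and 0.45 in 4h against 2h, against 0.14 and 0.13 over 13436 genes. With offsets for exon length added to the fit, 18 of the 43 were lower in 4h against 0h. In 4h against 2h 23 were called. The share of all genes called in these fits is not given here. In rev against 4h rho was -0.43 over the 43 genes and -0.13 over all genes. There the offsets ended the calls of Mcm5, Gins1, Gins4, Rfc4 and Rfc5. GC content had a rho of -0.51 with the change in 2h against 0h and -0.62 in rev against 0h over the 43 genes, and -0.40 and -0.36 over all genes.

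**Figure D5:**
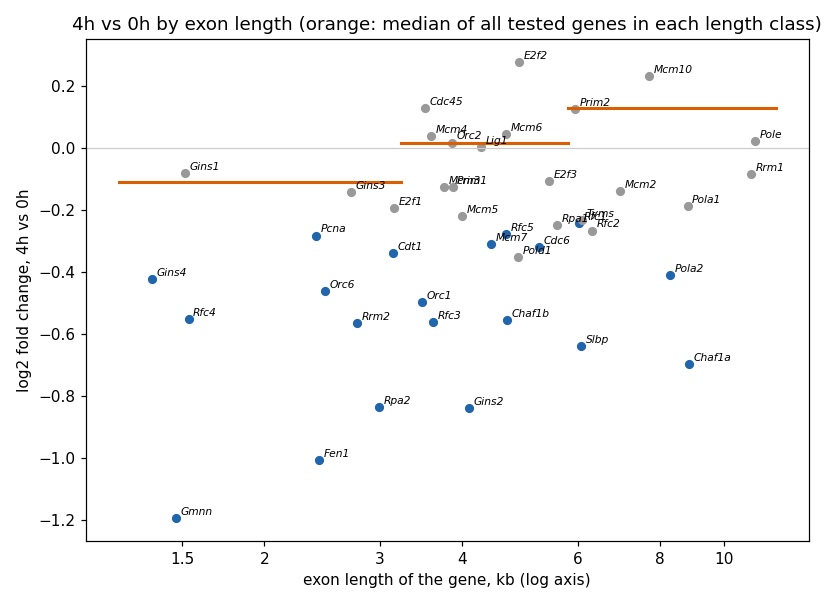
Log2 fold change in 4h against 0h against exon length (kb, log axis) for the 43 genes, blue where called lower and grey where not called; orange lines give the median of all tested genes in the shortest, middle and longest class of genes. The blue points lie below the orange line of their class in every case, and the lowest, Gmnn, is among the shortest genes.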

How the data were processed

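The values are raw read counts per gene, as deposited by the authors in 1 table. Per the labels, library preparation followed removal of ribosomal RNA from 1 µg of RNA. The submitters' processing notes name bcl2fastq 2.19.1, STAR 2.5.3a and mm10, while the counter, annotation and handling of strand are not given in the sources used here. Positions, lengths and overlaps came from GENCODE M21, which held 52403 of the 52636 identifiers.

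The fits used edgeR 4.0.16 (R 4.3.3): genes were filtered by filterByExpr for the groups (counts of at least 10, totals of at least 15), followed by TMM scaling, and quasi-likelihood F tests (robust, legacy=FALSE) of group with clone as covariate over all 15 samples. Clone differences used 1 mean per group and clone, so 0h clone 4, with 1 sample, was assumed to vary like the rest. Alternatives used other scalings, filters and libraries, DESeq2 1.42.0, and limma 3.58.1 (voom). Steps were tested on simulated data. Labels do not say that samples came from separate cultures, so p-values measure the spread between these samples, which exceeded counting error in every pair within a group (chi-square per degree of freedom 5.46 to 221). A level of 3 counts was 0.161 to 1.83 CPM, which covers counting error only.

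Library values are given for the 2 genes of each role with the smallest p over the 5 group comparisons, plus E2f1 and Pcna, and for the top gene of each further list. The members and lists were chosen with earlier results of these data known.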

Additional observations from a re-analysis of the deposited data

Results flagged for a closer look

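Of the values above, 5 stand out because a term for the difference between the clones passed the test, each as the log2 change of clone 8 minus that of clone 4. In 4h against 2h these were geminin (Gmnn, 1.238, adjusted p = 0.0132), Rrm2 (0.734, adjusted p = 0.0192) and Mcm10 (0.617, adjusted p = 0.0424). In 4h against 0h they were Gmnn (1.321, adjusted p = 0.0116) and Mcm6 (0.606, adjusted p = 0.0404). The geminin values at 4h were 6.11 and 5.92 CPM in clone 4 (10 and 24 counts) and 12.8 and 13.2 in clone 8 (56 and 35 counts). Mcm6 was at 144 and 151 CPM in clone 4 and 186 and 202 in clone 8 at 4h. The shallowest library, 4h clone4_1 with 1552022 counts, is one of the clone 4 pair, and without it geminin had 1.255 (adjusted p = 0.036) in 4h against 2h. Among 57 groups of 4 libraries checked, over the genes with library values, none held a library that stood outside the others by Dixon's criterion.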

How the results depend on the processing

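Of 69 called values of single genes, 22 held under every alternative, 47 were lost under at least 1 and none reversed. Leaving out each library in turn gave 12 to 24 genes called in 4h against 0h (20 with all), 19 to 26 in 4h against 2h (22), 9 to 18 in rev against 4h (16), 0 to 3 in rev against 0h (1), 1 in 2h against 0h (1) and 3 to 7 between clones (4). For clone differences it gave 0 to 3 in 4h against 2h (3), 0 to 1 in rev against 4h (0) and 0 to 4 in 4h against 0h (2), where the fit without 0h clone4_1 gives no value. Every library thinned to the smallest gave 10, 11, 9, 0, 0 and 1 calls in 4h against 0h, 4h against 2h, rev against 4h, 2h against 0h, rev against 0h and between clones, and 0 in each clone difference. Thinning leaves fewer counts. The 4h values of Fen1 and E2f2 rest on 3 to 12 counts a library. Total count scaling gave 39 in 4h against 0h, and the share of all genes called there is not given here. It gave 0 in 2h against 0h, rev against 0h, between clones and in the clone differences. Under it the median of all genes moved to -0.18 in 2h against 0h and -0.57 in 4h against 2h. In rev against 4h that median was 0.45, and in rev against 0h -0.30. In 2h against 0h, no filter, DESeq2 and a fit of only the groups compared gave 2 each. In rev against 0h they gave 5, 4 and 8, with 2 by RLE scaling, 4 without the 20 most abundant and mitochondrial genes, 5 by voom, 4 with edgeR's legacy fit, 3 with length offsets and 0 without a clone term. Between clones, 7 were called without the abundant genes and 7 by voom. The clone difference of 4h against 2h had 1 call without the abundant genes, by DESeq2 and by voom, and that of 4h against 0h had 4 without a filter and 0 without the abundant genes or by DESeq2. Without both 4h libraries of clone 4, 11 were called in 4h against 0h, and without those of clone 8, 28. These 2 settings, the legacy fit and the offsets for length and GC were chosen after seeing the data. For shifts other than thinning and fewer libraries the cause was not tested. The share of promoters with an E2F word was 40% with an alternative set of 3 words, also of 8 bases (GCGCGAAA, GGCGCGAA and GGCGGGAA). The first of these is the main word TTTCGCGC read on the other strand. With the main words the share was 25.7% in the bases before the start. The replicate block gave 1, 20, 22, 15 and 0 calls in 2h against 0h, 4h against 0h, 4h against 2h, rev against 4h and rev against 0h. Replicate numbers share only a number: differences between replicates of a clone correlated between -0.194 and 0.261 across groups.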
